A study of Rattus norvegicus with 15 samples.

Results

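Tubulin isotypes, the alternative alpha and beta subunits from which microtubules are built, were compared in the livers of control rats, rats exposed to CCl4 and rats exposed to CCl4 and treated with eplerenone. The genes were taken as the rows of the deposited gene count table whose symbol was Tuba1a, Tuba1b, Tuba1c, Tuba4a, Tubb2a, Tubb2b, Tubb3, Tubb4b, Tubb5 or Tubb6. All 10 were found among the 32623 rows, and all 10 passed the filter on low counts, which kept 14417 genes for testing. The labels list liver poly(A) RNA of 15 rats, 5 in each group. Of these, 14 were analysed here, namely 4 control rats, 5 CCl4 rats and 5 CCl4 plus eplerenone rats, and control replicate 1 was not analysed here.

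All animals were male Wistar rats that weighed 75 to 100 g at the start. Both CCl4 groups inhaled CCl4, a solvent that injures hepatocytes and leads to cirrhosis, 3 times per week for 12 weeks and drank water with 0.35 g/L phenobarbital. The eplerenone rats also received 100 mg/kg of eplerenone, a blocker of the mineralocorticoid receptor, from week 8 on, together with hazelnut spread. Livers were taken 7 to 10 days after the last CCl4, and the controls were labelled as untreated. The control animals thus lacked the phenobarbital as well as the CCl4, and effects of these agents cannot be told apart. By the study's account, animals were chosen for sequencing by phenotypic success of cirrhosis induction, of the eplerenone treatment or of both. The animal labels began with 13 or 16 in control rats and with 15 or 20 in both CCl4 groups, and what these prefixes stand for is not stated. A difference that follows the prefix cannot be told apart from CCl4 in any comparison with control.

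Microtubules are hollow polymers of alpha/beta-tubulin pairs that carry vesicles in hepatocytes, form the mitotic spindle of dividing cells and the core of cilia. The isotypes are encoded by separate genes with tissue-restricted expression: Tuba1a and Tubb3 are known from neurons, Tuba1b, Tuba1c and Tubb5 (the rat gene for TUBB) are widely expressed and abundant in dividing cells, and Tubb4b is a broadly expressed beta isotype found in cilia. Cells also adjust the stability of tubulin mRNAs to the amount of free tubulin.

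The promoters of the isotypes that rose with CCl4 are shown together with that of Tubb2a, which did not pass the test there and stood apart in 2 eplerenone rats. Each line gives the 250 bases before the annotated start, from RefSeq on GRCr8, 5′ to 3′ on the strand of the gene. Capitals mark matches on either strand to the TATA box letters TATAA, the CAAT box letters CCAAT and the GC box letters GGGCGG.
Tuba1a (chr7:131995820-131996069, minus strand): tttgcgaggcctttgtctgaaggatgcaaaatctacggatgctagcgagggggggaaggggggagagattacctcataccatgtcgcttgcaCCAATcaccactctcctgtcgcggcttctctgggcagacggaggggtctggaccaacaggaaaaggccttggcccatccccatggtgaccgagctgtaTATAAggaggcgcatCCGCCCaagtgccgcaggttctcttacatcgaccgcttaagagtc
Tuba1b (chr7:131972588-131972837, minus strand): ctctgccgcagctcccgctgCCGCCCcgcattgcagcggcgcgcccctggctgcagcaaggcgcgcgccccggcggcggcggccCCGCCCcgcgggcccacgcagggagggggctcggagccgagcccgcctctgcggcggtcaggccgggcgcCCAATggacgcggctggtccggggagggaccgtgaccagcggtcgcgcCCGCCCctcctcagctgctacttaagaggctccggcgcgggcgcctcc
Tuba1c (chr7:132070734-132070983, plus strand): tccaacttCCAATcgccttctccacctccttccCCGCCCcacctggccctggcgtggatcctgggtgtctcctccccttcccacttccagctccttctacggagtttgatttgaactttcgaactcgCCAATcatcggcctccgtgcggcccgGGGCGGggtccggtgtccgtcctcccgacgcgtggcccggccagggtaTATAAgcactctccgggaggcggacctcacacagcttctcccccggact
Tubb5 (chr20:2917327-2917576, plus strand): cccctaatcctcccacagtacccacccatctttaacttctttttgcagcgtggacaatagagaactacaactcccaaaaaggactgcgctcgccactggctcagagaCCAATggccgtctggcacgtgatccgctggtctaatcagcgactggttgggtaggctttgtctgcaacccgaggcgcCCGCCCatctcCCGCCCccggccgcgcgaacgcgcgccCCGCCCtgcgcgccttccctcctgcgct
Tubb6 (chr18:63213037-63213286, plus strand): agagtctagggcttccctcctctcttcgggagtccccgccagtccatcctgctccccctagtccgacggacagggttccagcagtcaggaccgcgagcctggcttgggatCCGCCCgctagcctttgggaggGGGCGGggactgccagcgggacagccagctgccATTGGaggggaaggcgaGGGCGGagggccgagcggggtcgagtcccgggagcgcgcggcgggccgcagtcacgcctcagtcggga
Tubb2a (chr17:31001936-31002185, plus strand): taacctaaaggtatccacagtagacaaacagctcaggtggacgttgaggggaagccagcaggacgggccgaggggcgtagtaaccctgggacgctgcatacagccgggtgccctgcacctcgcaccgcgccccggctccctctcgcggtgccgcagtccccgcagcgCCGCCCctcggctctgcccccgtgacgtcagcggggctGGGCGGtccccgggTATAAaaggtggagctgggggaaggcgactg
Among the 10 isotype promoters, which were all matched by symbol, TATAA was found in 6, against 24% of 33469 RefSeq promoter windows of the same length. CCAAT was found in 8, against 34%, and GGGCGG in 9, against 30.5%. In Tubb3 a pair of TATAA matches overlaps on opposite strands. TATAA was absent from the windows of Tuba1b, Tubb5 and Tubb6 and present in those of Tuba1a, Tuba1c and Tubb2a, so the isotypes that rose with CCl4 were found with and without it. These matches describe letters and not factor binding.

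The libraries held 16157491 to 21574767 counts. Levels are given as FPM, fragments scaled to a common library size after adjustment by the trimmed mean of M values (TMM), so 3 counts corresponded to 0.121 to 0.191 FPM. The hepatocyte marker sum lay between 81443 and 164663 FPM in all 14 rats. CCl4 replicate 5 had the highest hepatocyte sum of the CCl4 rats, 152006 FPM against 87064 to 112373 FPM in the others. Eplerenone replicate 3 had the lowest of all rats, 81443 FPM, but eplerenone replicate 1 was close to it at 88685 FPM, as was CCl4 replicate 1 at 87064 FPM. Results for the pair of CCl4 groups are also given without CCl4 replicate 5 and eplerenone replicate 3. The hepatocyte sum alone does not set eplerenone replicate 3 apart.

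**Figure D1:**
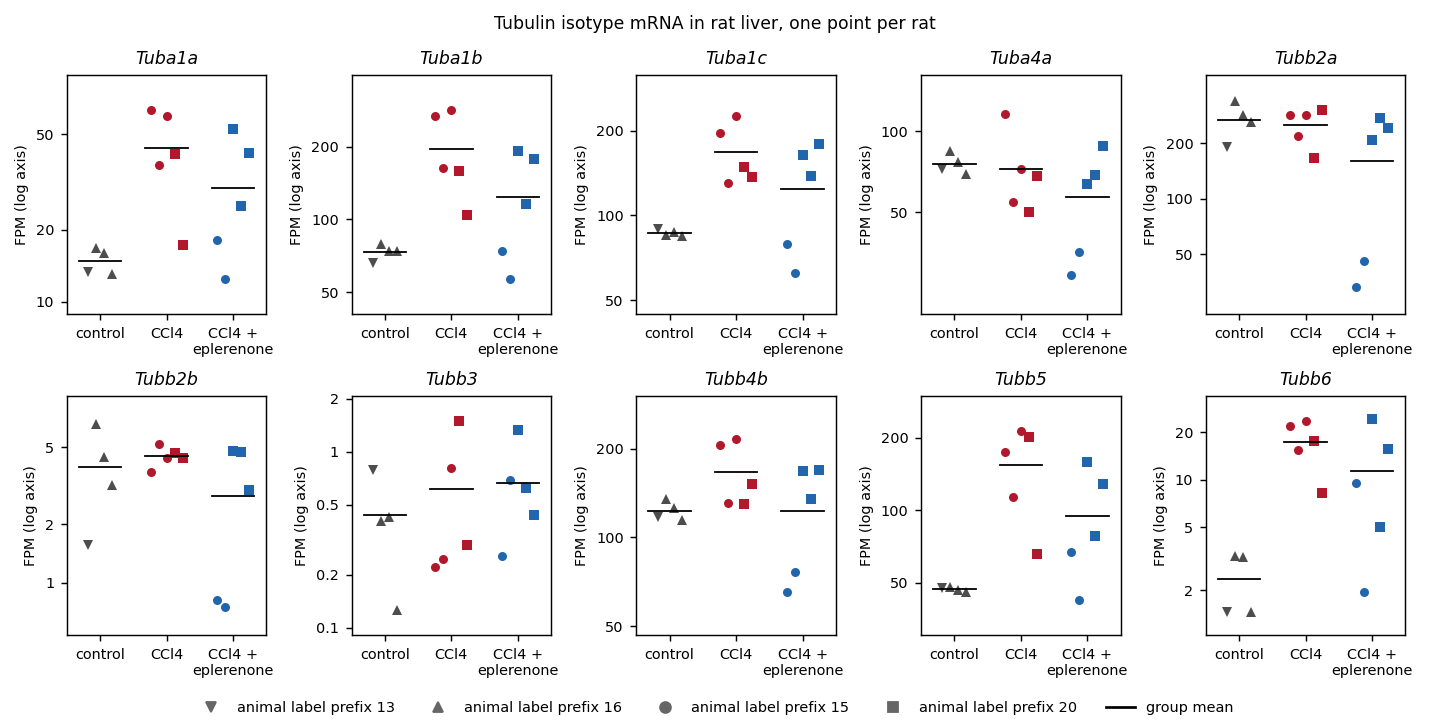
FPM (log axis) of each tubulin isotype in each rat, grouped by treatment, with the marker shape giving the animal label prefix and the line the group mean. Tuba1a, Tuba1b, Tuba1c, Tubb5 and Tubb6 lay above all controls in all 5 CCl4 rats, and Tubb2a lay at 33.1 and 45.8 FPM in the 2 eplerenone rats of prefix 15.

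The first comparison asked which isotypes differed between cirrhotic and control liver. With CCl4, 5 of the 10 isotypes rose and none fell at an adjusted p under 0.05 in the quasi-likelihood test of edgeR, adjusted after Benjamini-Hochberg. Over all genes tested, 13.4% were called higher and 20.2% in either direction. The same 5 isotypes were called by DESeq2, which called 27.8% of all genes. Their CCl4 and control ranges did not overlap, which 11.2% of all genes showed in this direction. The median log2 fold change was 0.72 over the 10 isotypes and -0.01 over all genes tested. In bulk liver RNA, a different share of a cell type and a different amount of RNA per cell cannot be told apart. A read that mapped to several isotypes was counted for each, so shared reads and separate rises cannot be told apart. Over the 10 CCl4-treated rats, Pearson's r was 0.97 for Tuba1a with Tuba1b and 0.95 for Tuba1b with Tuba1c. It was also 0.96 for Tuba1a with Tubb5, an alpha and a beta isotype.

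Of the alpha isotypes, Tuba1a, the isotype best known from developing neurons, had 13.4, 16.8, 16.0 and 13.1 FPM in control replicates 2 to 5 and 63.2, 37.2, 59.5, 41.4 and 17.2 FPM in CCl4 replicates 1 to 5. All CCl4 rats lay above all controls, with CCl4 replicate 5 just above them. Tuba1a rose from 14.8 ± 1.84 FPM (SD, n = 4) to 43.7 ± 18.6 FPM (SD, n = 5), a log2 fold change of 1.56 (standard error 0.41, adjusted p = 0.0174, edgeR). The call was lost without control replicate 5 (adjusted p = 0.0574, edgeR), where 1365 genes were called over all genes against 2906 in the main fit.

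Tuba1b, the ubiquitous alpha isotype, had 66.0, 79.0, 73.9 and 73.8 FPM in the controls and 268, 163, 284, 159 and 104 FPM in the CCl4 rats. The controls lay close together, and the CCl4 rats spread over a wide range above them, again with replicate 5 lowest. The mean rose 2.67-fold, and the log2 fold change was 1.42 (standard error 0.36, adjusted p = 0.0151, edgeR).

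Tuba1c, a further widely expressed alpha isotype, had 89.6, 84.9, 87.7 and 84.4 FPM in the controls and 196, 130, 226, 149 and 137 FPM in the CCl4 rats. The groups did not overlap, and the lowest CCl4 rat was here replicate 2. Tuba1c rose with a log2 fold change of 0.95 (standard error 0.28, adjusted p = 0.0301, edgeR). Among the 5 calls with CCl4 against control it held least often, in 8 of 14 fits with a rat left out. It was lost without any 1 of the 4 controls and without CCl4 replicate 1 or 3 (adjusted p = 0.0610 to 0.0802, edgeR). In these fits 1365 to 1987 genes were called over all genes, against 2906 in the main fit. A row named LOC100909441 on chromosome 2 held 94.9% to 100.2% of the Tuba1c count in every rat, while Tuba1c is on chromosome 7. A read with several mapping positions was counted at every position, so whether both rows hold the same reads cannot be told apart.

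Tuba4a, an alpha isotype that lacks the genetically encoded C-terminal tyrosine of the others, did not pass the test. It had 75.9 ± 6.54 FPM in control (SD, n = 4) and 72.4 ± 26.3 FPM with CCl4 (SD, n = 5), with overlapping ranges. Its log2 fold change was -0.07 (standard error 0.30, adjusted p = 0.881, edgeR).

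Of the beta isotypes, Tubb6, a beta isotype of class V that is low in most normal adult tissues, had the highest fold change of the 10. It had 1.45, 3.30, 3.24 and 1.46 FPM in the controls and 21.9, 15.5, 23.5, 17.5 and 8.27 FPM in the CCl4 rats. Even the lowest CCl4 rat, replicate 5, lay above the highest control. Tubb6 rose from 2.36 ± 1.05 FPM (SD, n = 4) to 17.3 ± 6.0 FPM (SD, n = 5), or 7.35-fold, with a log2 fold change of 2.87 (standard error 0.60, adjusted p = 0.00557, edgeR).

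Tubb5, the widely expressed class I beta isotype, had 47.3, 47.8, 46.7 and 45.9 FPM in the controls and 174, 114, 214, 201 and 66.1 FPM in the CCl4 rats. The control values were almost equal, and all CCl4 rats lay above them, with replicate 5 lowest. Tubb5 rose with a log2 fold change of 1.71 (standard error 0.38, adjusted p = 0.00737, edgeR), or 3.28-fold in the mean.

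Tubb4b, the broadly expressed isotype known from cilia, had 123 ± 9.32 FPM in control (SD, n = 4) and 167 ± 41.0 FPM with CCl4 (SD, n = 5). Its log2 fold change of 0.44 did not pass the test (standard error 0.28, adjusted p = 0.255, edgeR). Tubb2a, a class II beta isotype, had 192 to 337 FPM in the controls and 167 to 304 FPM in the CCl4 rats, with a log2 fold change of -0.10 (standard error 0.49, adjusted p = 0.898, edgeR). The ranges of both isotypes overlapped between the groups.

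Tubb2b, the class II isotype next to Tubb2a on chromosome 17, had 1.57 to 6.59 FPM in the controls and 3.72 to 5.22 FPM in the CCl4 rats. Tubb3, the neuronal class III isotype, was close to the detection limit with 2 to 33 counts per rat. Neither passed the test (adjusted p = 0.813 for Tubb2b and 0.628 for Tubb3, edgeR). Of 6 Schwann cell and neuron markers, 2 to 5 were at 0 in each rat and 1 was tested, which was not called in any comparison.

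**Figure D2:**
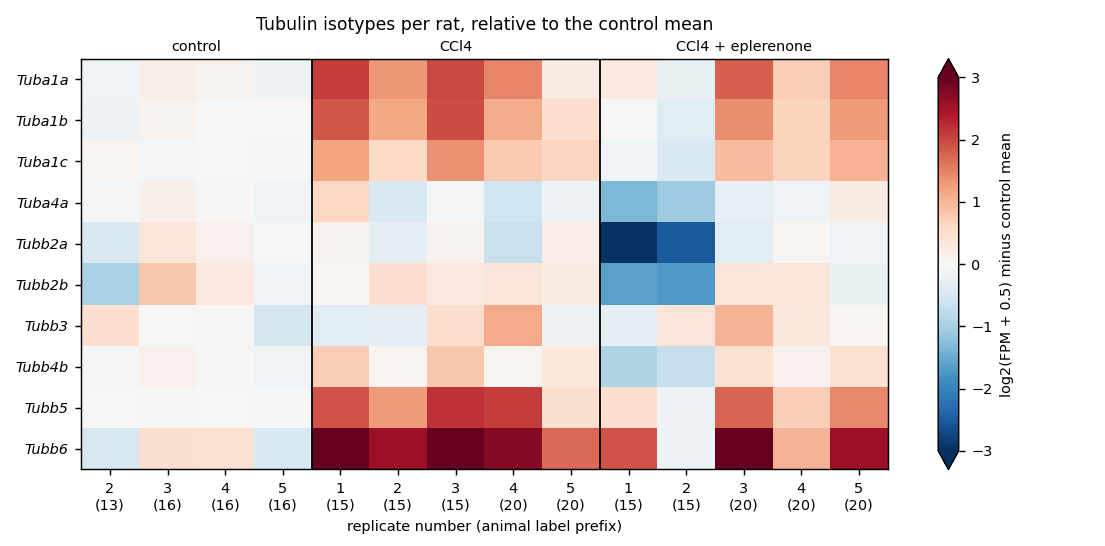
Each cell gives the log2(FPM + 0.5) of an isotype in a rat minus the mean of the 4 controls, with the replicate number and the animal label prefix under each column. Tubb6 was at least 8.27 FPM in the CCl4 rats against at most 3.30 FPM in control, and Tubb2a and Tubb2b were lowest in eplerenone replicates 1 and 2.

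The 5 isotypes that rose did so beside markers of several cell types. All 6 proliferating cell markers were called higher with CCl4, with sums of 5.47 to 12.8 FPM in control and 33.6 to 81.2 FPM with CCl4. All 6 cholangiocyte markers were called higher, with sums of 14.2 to 23.2 and 42.9 to 140 FPM. Of the stellate cell and myofibroblast markers, 5 of 7 were called higher, with sums of 144 to 242 and 260 to 538 FPM. Of all genes tested, 13.4% were called higher. No marker of these lists was at 0 in any rat.

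None of the 7 hepatocyte markers was called, and their sums lay at 150303 to 164663 FPM in control and 87064 to 152006 FPM with CCl4. Called higher were 2 of 6 lymphocyte markers, 2 of 2 tested neutrophil markers, 1 of 2 tested platelet markers and 1 of 5 endothelial markers. Called lower were 1 endothelial and 1 of 6 macrophage markers. Beside these small counts, 13.4% of all genes were called higher and 20.2% in either direction. CCl4 replicate 5, the lowest of its group for Tuba1a, Tuba1b, Tubb5 and Tubb6, had also the lowest proliferating, cholangiocyte, stellate cell, endothelial and lymphocyte sums of its group. Its macrophage, neutrophil, platelet and Schwann cell and neuron sums were not the lowest. The part of these cell types in the tubulin result was not tested.

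The relative use of the isotypes was described as the share of each in the counts of its class, with no test. These shares compare an isotype between rats and not isotypes with each other, since counts were not divided by transcript length. The share of Tuba4a in the alpha-tubulin counts was 30.2 ± 1.25% in control (SD, n = 4), 15.4 ± 3.99% with CCl4 (SD, n = 5) and 17.5 ± 3.35% with CCl4 plus eplerenone (SD, n = 5). No rat of either CCl4 group reached the lowest control share of 28.8%. The share of Tuba1b was 29.2 ± 1.44%, 39.98 ± 4.78% and 36.3 ± 2.93%, and that of Tuba1a 5.90 ± 0.47%, 8.88 ± 2.06% and 8.66 ± 1.57% in the same order. Tuba1c had mean shares of 34.7%, 35.7% and 37.6%.

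Among the beta-tubulin counts, Tubb2a held 59.9 ± 4.55% in control, 42.7 ± 9.22% with CCl4 and 36.3 ± 14.1% with CCl4 plus eplerenone. Tubb5 held 10.7 ± 1.76%, 25.7 ± 9.46% and 26.0 ± 8.15%, and Tubb6 0.51 ± 0.17%, 2.89 ± 0.75% and 2.94 ± 1.93%. The share of Tubb5 in CCl4 replicate 5 was 12.4% and lay within the control range of 9.0% to 13.1%. Tubb4b held 28.0%, 27.8% and 33.9% of the beta-tubulin counts.

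**Figure D3:**
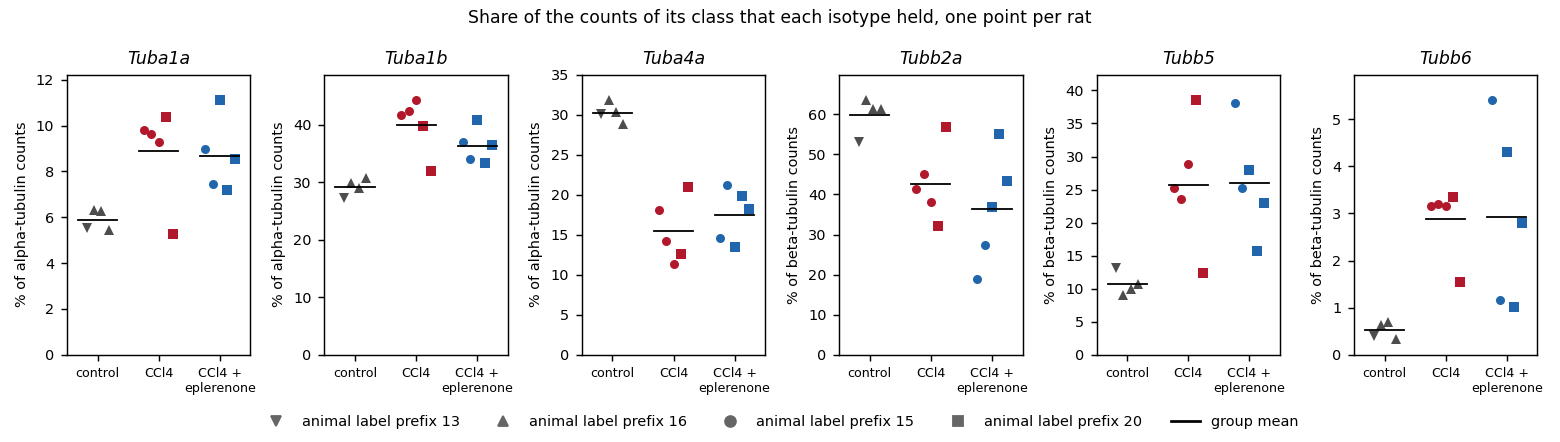
Share (%) of the alpha-tubulin or beta-tubulin counts that each of 6 isotypes held in each rat, with the marker shape giving the animal label prefix and the line the group mean. Tuba4a lay at 28.8% or more in all controls and at 21.3% or less in all CCl4-treated rats.

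The second comparison asked whether the isotypes differed with eplerenone under CCl4. None of the 10 isotypes was called by edgeR or by DESeq2, against 0.0139% and 0.513% of all genes tested. None had an unadjusted p under 0.05 in edgeR, against 14.4% of all genes. The log2 fold change was below 0 for 9 isotypes, with a median of -0.58 over the 10 and of 0.01 over all genes tested. All ranges overlapped between both groups, while 0.964% of all genes showed no overlap.

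Tubb5 had 66.9, 42.3, 158, 78.0 and 129 FPM in eplerenone replicates 1 to 5. Replicate 2 lay below the lowest control and replicate 3 within the range of the CCl4 rats. The mean was 94.8 ± 47.4 FPM against 154 ± 62.4 FPM with CCl4 (SD, n = 5 each), and the log2 fold change was -0.70 (standard error 0.34, adjusted p = 0.354, edgeR). Tuba1b had 74.2, 56.8, 193, 116 and 178 FPM in the eplerenone rats, with a log2 fold change of -0.66 (standard error 0.33, adjusted p = 0.359, edgeR). Tuba1a had 18.0, 12.5, 52.6, 25.0 and 41.6 FPM, with a log2 fold change of -0.54 (standard error 0.37, adjusted p = 0.465, edgeR). The rats kept the same order for both alpha isotypes, with replicate 3 highest and replicate 2 lowest.

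Tubb6 had 9.51, 1.94, 24.4, 5.02 and 15.6 FPM in the eplerenone rats. It spread from the control range in replicate 2 to above the highest CCl4 rat in replicate 3, and its log2 fold change was -0.61 (standard error 0.50, adjusted p = 0.535, edgeR). Tuba1c had 79.0, 62.6, 164, 138 and 179 FPM, with a log2 fold change of -0.43 (standard error 0.26, adjusted p = 0.420, edgeR). Tuba4a, Tubb2a, Tubb2b and Tubb4b had log2 fold changes of -0.34 to -0.66, and Tubb3 had 0.14.

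Without CCl4 replicate 5 and eplerenone replicate 3, Tuba1a and Tubb5 fell with eplerenone, with log2 fold changes of -1.07 (adjusted p = 0.0469) and -1.17 (adjusted p = 0.0291, both edgeR). For both genes these were the lowest CCl4 rat and the highest eplerenone rat, so leaving them out moves the groups apart by construction. In that fit 1294 of 14126 genes were called in place of 2 of 14417. The proliferating cell marker sums of eplerenone replicates 1 to 5 were 14.0, 5.26, 62.0, 12.9 and 43.3 FPM. Replicates 3 and 5, the highest for these markers, were also the highest for Tuba1a, Tuba1b, Tubb5 and Tubb6. They were likewise highest for the lymphocyte sums (5.26, 3.63, 6.96, 6.55 and 9.78 FPM in replicates 1 to 5). The same held for the neutrophil sums (4.09, 1.00, 8.46, 8.41 and 24.0 FPM). It did not hold for the cholangiocyte, stellate cell, endothelial and macrophage sums. The part of these cell types in the tubulin values was not tested.

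Except for Tubb3 and Tubb6, the eplerenone rats separated by the prefix of the animal label for every isotype, most widely for Tubb2a and Tubb2b. The share of all genes that separated in this way was not counted, so the split cannot be called particular to tubulins. Replicates 1 and 2 carried prefix 15, as did CCl4 replicates 1 to 3, and the other CCl4-treated rats carried prefix 20. Tubb2a had 33.1 and 45.8 FPM in the 2 eplerenone rats of prefix 15 and 208, 274 and 243 FPM in the 3 of prefix 20. In the other 12 rats of the study Tubb2a lay between 167 and 337 FPM, so the gap was 3.65-fold. Tubb2b, its neighbour, had 0.818 and 0.751 FPM in these 2 rats, from 16 and 12 counts, and 1.57 to 6.59 FPM in the other 12. Over the CCl4-treated rats Tubb2b and Tubb2a had a Pearson's r of 0.92. A read that mapped to both genes was counted for both, so a fall of Tubb2b cannot be told apart from shared Tubb2a reads. Tuba4a (29.2 and 35.6 FPM), Tubb4b (65.2 and 76.4 FPM) and Tuba1c (79.0 and 62.6 FPM) were also lowest of all 14 rats in this pair. The share of all genes lowest in this pair was not counted either. Tuba1a had 18.0 and 12.5 FPM in this pair and 25.0 to 52.6 FPM in the eplerenone rats of prefix 20. Tuba1b had 74.2 and 56.8 FPM against 116 to 193 FPM, and Tubb5 66.9 and 42.3 FPM against 78.0 to 158 FPM.

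Within prefix 15, 9 of the 10 isotypes were lower in both eplerenone rats than in all 3 CCl4 rats, against 23.5% of 13795 genes tested among the CCl4-treated rats. The exception was Tubb3. These 9 had an unadjusted p under 0.05 in edgeR, against 14.1% of all genes in this direction. Only Tubb2a was called, with a log2 fold change of -2.76 (standard error 0.34, adjusted p = 0.0244, edgeR's quasi-likelihood test), where 0.174% of all genes were called. Tubb2b had -2.52 (standard error 0.43, adjusted p = 0.0506, edgeR), and the other 7 lay between -1.35 for Tuba4a and -1.89 for Tuba1b.

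Within prefix 20, none of the isotypes was called, and neither was any other gene (0%). The ranges of the 3 eplerenone and 2 CCl4 rats overlapped for all 10, whereas 5.68% of all genes were lower and 4.18% higher without overlap. The log2 fold changes lay between -0.14 for Tubb3 and 0.46 for Tuba1a. Tubb2a had 0.06 (standard error 0.31). The difference of the eplerenone effect between the prefixes (20 minus 15) was 2.83 for Tubb2a (standard error 0.45, unadjusted p = 7.88e-05, adjusted p = 0.142, edgeR), so it did not pass the test over all genes. The difference had an unadjusted p under 0.05 for 7 isotypes, against 12.2% of all genes, and none of the isotypes and 0% of all genes passed the adjusted threshold. The prefix split was looked at with earlier results of these data known, and its meaning is not stated in the labels.

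**Figure D4:**
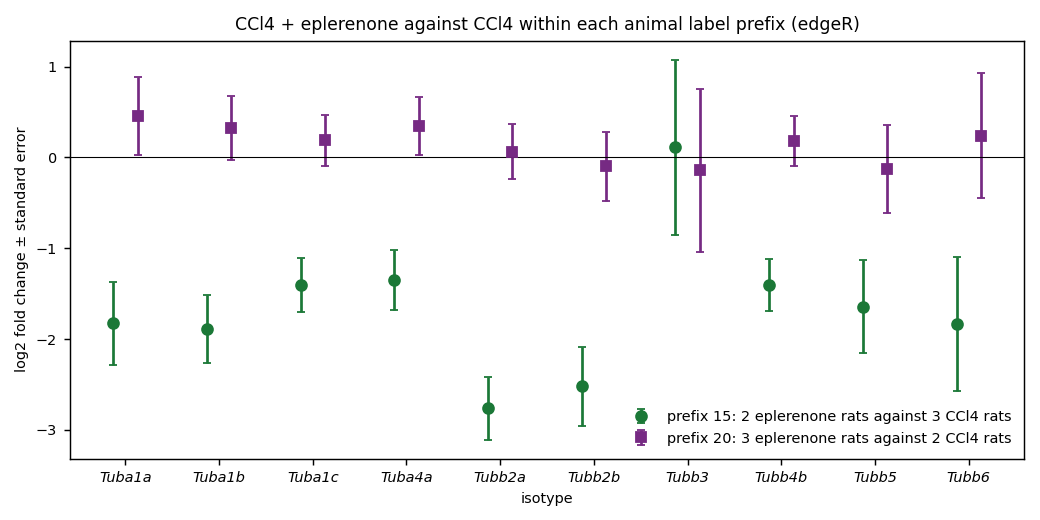
Log2 fold change ± standard error of CCl4 plus eplerenone against CCl4 for each isotype, computed with edgeR within animal label prefix 15 (2 against 3 rats) and prefix 20 (3 against 2 rats). Tubb2a was at -2.76 in prefix 15 and at 0.06 in prefix 20.

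The third comparison set the eplerenone rats against control, with the same eplerenone and control rats as above, so it is not independent of the first 2 comparisons. Tubb6 was the isotype called, with a log2 fold change of 2.26 (standard error 0.58, adjusted p = 0.0360, edgeR), against 5.22% of all genes called and 4.33% called higher. It was also the isotype called by DESeq2, which called 10.6% of all genes. An unadjusted p under 0.05 was found for 4 isotypes, against 20.5% of all genes. None of the isotypes was free of overlap with control, as 10.9% of all genes were. The range of Tubb6 overlapped that of control at replicate 2, and the call held in 7 of 14 fits with a rat left out. It was lost without any 1 of the 4 controls and without eplerenone replicate 1, 3 or 5 (adjusted p = 0.0523 to 0.123, edgeR). In these fits 221 to 555 genes were called over all genes, against 753 in the main fit.

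Tubb5 had a log2 fold change of 1.02 against control (standard error 0.37, adjusted p = 0.127, and called without eplerenone replicate 2 at 0.0397), Tuba1a of 1.02 (standard error 0.40, adjusted p = 0.158) and Tuba1b of 0.76 (standard error 0.35, adjusted p = 0.240, all edgeR). Both eplerenone rats of prefix 15 were also left out, after they were seen to be low for most isotypes. Leaving them out moves the eplerenone group up by construction. In that fit 5 isotypes were called higher, against 8.39% of all genes called in either direction. These were Tubb6 (2.66), Tuba1a (1.42), Tubb5 (1.37), Tuba1b (1.15) and Tuba1c (0.88, log2 fold changes with adjusted p of 0.00797 to 0.0335, edgeR).

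**Figure D5:**
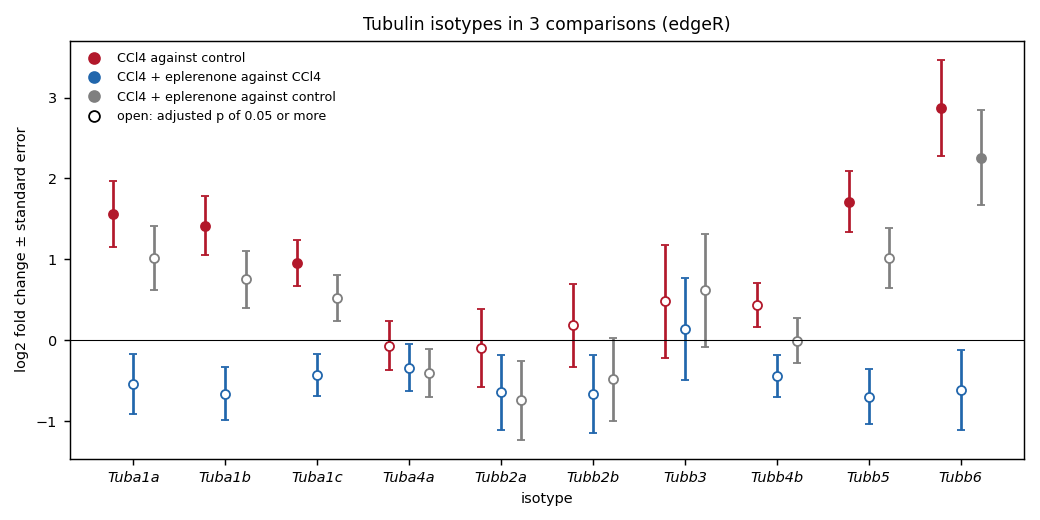
Log2 fold change ± standard error of each isotype in the 3 comparisons (edgeR), with filled points for an adjusted p under 0.05. With CCl4 5 isotypes were called, from 0.95 for Tuba1c to 2.87 for Tubb6, and with CCl4 plus eplerenone against control Tubb6 was called at 2.26.

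The genes that fold, modify and organise tubulin were taken from lists chosen with earlier results of these data known. Of 22 tested genes for tubulin folding, which cover the chaperonin, prefoldin and tubulin cofactors, 2 rose with CCl4 and none fell, where 13.4% of all genes were called higher. Pfdn1, a prefoldin subunit, had 44.5 ± 6.52 FPM in control and 86.1 ± 38.1 FPM with CCl4 (SD, log2 fold change 0.95, standard error 0.29, adjusted p = 0.0350, edgeR). Pdcl3, a phosducin-like co-chaperone, had 12.2 and 18.3 FPM (0.58, adjusted p = 0.0478, edgeR). The median of the list was 0.29, against -0.01 over all genes.

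Of 17 tested tubulin-modifying enzymes, 2 rose with CCl4 and none fell, against the same 13.4% of all genes called higher. These were Agtpbp1, a carboxypeptidase that removes glutamates from tubulin tails (1.68 to 6.22 FPM, log2 fold change 1.89, adjusted p = 0.0146, edgeR), and Svbp, the partner of the tubulin-detyrosinating vasohibins (2.41 to 5.91 FPM, 1.29, adjusted p = 0.0110, edgeR). None of 9 genes of the gamma-tubulin ring complex, which nucleates microtubules, and none of 3 genes of tubulin mRNA autoregulation (Ttc5, Scaper and Cnot11) was called.

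Of 34 tested microtubule-associated and dynamics proteins, 10 rose and 2 fell with CCl4, where 20.2% of all genes were called in either direction. Dclk1, a microtubule-binding kinase, rose from 0.59 to 5.81 FPM (log2 fold change 3.28, adjusted p = 0.00369, edgeR). Kif2c, a depolymerising kinesin of mitosis, rose from 0.46 to 3.53 FPM (2.92, adjusted p = 0.0359), and Prc1, a bundler of the central spindle, from 1.02 to 5.41 FPM (2.40, adjusted p = 0.0202, both edgeR). Fign, a microtubule-severing enzyme, and Mapre3, which binds growing microtubule ends, were the genes that fell, by 2.28 and 0.72 on the log2 scale. Kif2c and Prc1 act in dividing cells. Markers of proliferating cells, cholangiocytes and stellate cells were called higher in the same rats, and their part in these genes was not tested.

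With eplerenone against CCl4, none of the genes of these lists was called. Against control, Map1b (2.84), Dclk1 (2.83) and Map1s (1.28, log2 fold changes with adjusted p of 0.0081 to 0.0438, edgeR) were called higher in the eplerenone rats, all from the 34 microtubule-associated and dynamics proteins, and none was called lower. Over all genes, 4.33% were called higher in this comparison. Of the other tubulin genes, 6 of 10 were tested and none was called in any comparison. Among these, Tubg1, the main gamma-tubulin, had 22.0 ± 1.95 FPM in control, 22.5 ± 5.42 FPM with CCl4 and 18.9 ± 2.54 FPM with CCl4 plus eplerenone. For the other 5, Tuba3a, Tubb4a, Tubd1, Tubg2 and Tube1, the log2 fold changes with CCl4 lay between -0.72 for Tubd1 and 2.47 for Tubb4a, with the lowest adjusted p at 0.106 (edgeR).

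Over the 10 CCl4-treated rats, the genes most like each isotype were ranked by Pearson's r of log2(FPM + 0.5) among 12787 genes with a mean of at least 1 FPM. This is a description of 10 rats that share library and depth differences, with no test. For Tubb5 these were Adap1 (0.99), S100a4 (0.99) and Coro1a (0.99), of which Coro1a is known as an actin regulator of leukocytes. For Tubb6 they were Dipk1b (0.98), LOC108348139 (0.97) and Prmt1 (0.96). For Tuba1a they were Sting1 (0.98), Serpinb6a (0.98) and Cyth4 (0.98), and for Tuba1b Cyba (0.98), Traf2 (0.98) and Acap1 (0.97). Sting1 is known as an adaptor of innate immunity and Cyba as a subunit of NADPH oxidase. The other genes named for these isotypes are not described here, and a part of leukocytes in the rankings was not tested.

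For the other isotypes, Tubb2a was most like Rprm (0.96), Npas2 (0.94), a transcription factor of the circadian clock, and RT1.CE7 (0.93). Tubb2b was most like Gpm6a (0.98), Ift57 (0.96) and Ubd (0.94). Tubb2a lay at 33.1 and 45.8 FPM in the 2 eplerenone rats of prefix 15 and at 167 FPM or more in the other CCl4-treated rats. The rankings of Tubb2a and Tubb2b thus lean on these 2 rats. Tubb4b was most like Trip10 (0.97), Fance (0.96) and Cks2 (0.96), and Tuba4a was most like Arfgap1 (0.96), RGD1305464 (0.92) and Ccdc97 (0.92). Tuba1c was most like LOC100909441, described above, LOC100361854 (0.99) and Rpl4 (0.97). Tubb3 was under 1 FPM in the mean and was not ranked.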

How the data were processed

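Poly(A) RNA of rat liver was read from both ends over 150 bp. The authors mapped the reads to rn6 with HISAT2 (2.1.0) and counted them over exons with featureCounts, with each mapping position of a read counted. The strand setting was not given in the sources used here, so reads of overlapping antisense genes cannot be told apart. The deposited values are raw counts per gene, with 0 columns of other samples. The members and the gene lists were chosen with earlier results of these data known.

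Groups were taken from the labels. Counts were filtered with filterByExpr (minimum count 10), scaled by TMM and fitted over all 3 groups with edgeR's quasi-likelihood test (edgeR 4.0.16, limma 3.58.1, R 4.3.3), and p-values were adjusted after Benjamini-Hochberg over all 14417 genes tested. DESeq2 1.42.0, other scalings, filters and sample sets were alternatives. Each sample was a separate rat by its animal label. The fits were tested on simulated data. Named genes were all members, all other tubulins that passed the filter (by value or range), up to 3 called genes per list with the highest absolute fold change with CCl4, and the 3 non-tubulin genes most like each member. Map1b, Map1s, Fign, Mapre3, Tuba3b and Tubal3 were named after their values were seen, and the autoregulation list is named in full. RefSeq on GRCr8 lists 31 tubulin pseudogenes, 14 of them named after Tuba1b, whose reads may be counted with the isotypes. No 2 libraries of 1 group agreed within sampling noise.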

Additional observations from a re-analysis of the deposited data

How the results depend on the processing

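With CCl4 against control, 3 to 5 isotypes were called when 1 rat was left out, with 3 without control replicate 5, where Tuba1a and Tuba1c lost the call. Over all genes, 2906 of 14417 were called in the main fit and 1365 of 14745 without control replicate 5. Other settings gave 4 or 5, with 4 under the replicate block. Log2 fold changes over the fits with 1 rat left out were 2.69 to 3.07 for Tubb6, 1.57 to 1.91 for Tubb5, 1.42 to 1.76 for Tuba1a, 1.25 to 1.58 for Tuba1b and 0.82 to 1.03 for Tuba1c. With eplerenone against CCl4, 2 isotypes were called with 4 samples a group (without CCl4 replicate 5 and eplerenone replicate 3) and 0 in all other settings. Over all genes, 1294 of 14126 were called with 4 samples a group and 2 of 14417 in the main fit. With eplerenone against control, 2 were called with total counts, 0 with only the 2 groups compared, 0 with the replicate block, 0 with 4 samples a group, 5 without both eplerenone rats of prefix 15 (added after seeing the data), and 0 to 2 when 1 rat was left out (2 without eplerenone replicate 2, 0 without any 1 control or without eplerenone replicate 1, 3 or 5). Over all genes, 753 were called in the main fit, 1351 with total counts, 784 with only the 2 groups compared, 270 with the replicate block and 688 with 4 samples a group. Without both eplerenone rats of prefix 15, 1229 genes were called, and 1277 without eplerenone replicate 2. Calls over all genes were 221 to 417 without 1 control and 378 to 555 without eplerenone replicate 1, 3 or 5. The replicate numbers did not pair the rats: of 13 same-number pairs, 4 had a correlation of deviations over 0.1 (-0.37 to 0.22), and 1743 genes were called with CCl4 under the block, 2906 without it. Scaling to total counts moved the median log2 fold change of all genes to 0.28 (CCl4 against control) and 0.32 (eplerenone against control). Direction changed only for isotypes that were not called. With CCl4 against control, Tuba4a was at 0.20 and Tubb2a at 0.17 with total counts, Tubb2a at 0.15 under the replicate block, and with 1 rat left out Tuba4a lay at -0.28 to 0.052, Tubb2a at -0.23 to 0.034, Tubb2b at -0.084 to 0.54 and Tubb3 at -0.13 to 0.91. With eplerenone against CCl4, Tubb3 was at -0.48 with 4 samples a group, -0.024 with the label prefix as a term and -0.32 to 0.78 with 1 rat left out, and Tuba4a at 0.030 without both eplerenone rats of prefix 15. With eplerenone against control, Tubb4b was at 0.0095 with DESeq2 size factors and with DESeq2, 0.35 with total counts, 0.019 without a filter, 0.046 with at least 10 counts in every sample, 0.018 with only the 2 groups compared, 0.35 without both eplerenone rats of prefix 15 and -0.15 to 0.18 with 1 rat left out, and Tubb2b was at 0.077 without both of these rats. The causes were not tested. Shares per transcript length were not run, since exon lengths were not used here. Tubb3 had 2 to 33 counts per rat.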

Other observations

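The summed alpha-tubulin level was 251 ± 11.7 FPM in control (SD, n = 4), 479 ± 152 FPM with CCl4 and 335 ± 149 FPM with CCl4 plus eplerenone (SD, n = 5 each). The summed beta-tubulin level was 446 ± 71.3, 595 ± 114 and 393 ± 204 FPM in the same order. Tuba3b, a row that did not pass the filter on low counts, had 0.231 to 0.603 FPM in control, 0 to 0.166 FPM with CCl4 and 0 to 0.282 FPM with CCl4 plus eplerenone, where 3 counts corresponded to 0.121 to 0.191 FPM. Tubb4a, a beta isotype known from the brain, had 0 to 0.289 FPM in control, 0.119 to 0.721 FPM with CCl4 and 0.0546 to 0.688 FPM with CCl4 plus eplerenone. Tubal3 was at 0 counts in all 14 rats.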
